A study of Mus musculus with 7 samples.

Results

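Mid-capillary endothelial cells were described here as the endothelial barcodes in which capillary markers were detected and a set of excluded genes was not. Members were chosen by measured values. A barcode was a member where at least 3 of the 5 genes Mfsd2a, Slc16a1, Hmcn1, Slc1a1 and Slc7a5 had a UMI (a unique molecular identifier, which stands for 1 captured RNA molecule) and none of the 10 genes Bmx, Gkn3, Vegfc, Sema3g, Sema3c, Lrrn3, Slc38a5, Ndnf, Vwf and Plvap had one. The rule found 548 members among 31753 endothelial barcodes, which in turn were part of 39315 barcodes with at least 500 genes and at most 15% mitochondrial UMIs. An endothelial barcode had a UMI of at least 3 of the 8 genes Pecam1, Cdh5, Cldn5, Flt1, Ly6c1, Egfl7, Itm2a and Eng, and at most 1 UMI of Vtn, Acta2 and C1qa together. The levels of these genes are the rule and not findings.

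The study isolated vessels from mouse brain and sequenced single cells by droplet capture. All 7 libraries came from untreated C57Bl6 mice, labelled WT, and from 1 hemisphere without cerebellum, brain stem and olfactory bulbs. Cells were released with collagenase and pulled down with beads against CD31, so the capture itself selects endothelium. There were 3 libraries of mice aged 12 months and 4 of mice aged 3 months. The labels do not say whether each library was 1 animal, so the p-values below measure the spread between these libraries, which may be technical. The older mice's libraries were single-index and went through Cell Ranger 4.0.0. The younger ones' were dual-index and went through version 6.1.1, so age, library set, software version and depth cannot be told apart. Sex-linked RNA was uneven between the ages too, with Xist in members of 3-month replicates 1 and 2 only.

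Brain capillaries form the blood-brain barrier, in which endothelial cells with tight junctions and little transcytosis move nutrients by dedicated transporters and expel drugs by efflux pumps. Along the vessel tree, endothelial gene expression changes gradually from artery to capillary to vein. Mfsd2a, a lysolipid transporter that restrains caveolar transcytosis, Slc16a1, a lactate and ketone transporter, and Slc7a5, a large neutral amino acid transporter, are typical of the capillary stretch, whereas Bmx, Gkn3 and Vegfc mark the arterial side and Slc38a5 and Vwf the venous side.

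There were 35, 108 and 198 members in the 12-month libraries and 92, 42, 43 and 30 members in the 3-month libraries, in the order of their replicate numbers. Total UMIs per library ran from 8706961 to 44861008, and the median UMIs of a member ran from 936 in 12-month replicate 1 to 2656 in 3-month replicate 2. Members were shallower than endothelial barcodes at large, whose medians ran from 1082 to 5393. No library pair shared more than 24 barcodes, and 0 member barcodes were shared. No doublet caller was used. Instead each gene comparison was repeated without the barcodes above the 95th percentile of UMIs among the endothelial barcodes of their library. Of the members, 18 took at least 5% of their UMIs from erythroid genes (15 barcodes) or choroid plexus genes (3 barcodes), and 12 of these 18 lay in 12-month replicate 2. The comparisons were therefore also repeated without such barcodes.

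The rule's threshold cut through a graded distribution. Among barcodes without any of the 10 excluded genes, 102, 97 and 223 in the 12-month libraries and 47, 17, 33 and 8 in the 3-month libraries had exactly 2 of the 5 markers and stayed outside, against 30, 71 and 140 and 60, 14, 24 and 15 with exactly 3. All 5 markers were found in 0, 4 and 7 and in 5, 9, 8 and 3 members. Sema3c, a secreted semaphorin, was the gene that kept most barcodes out, with a UMI in 57.6% to 92.1% of the endothelial barcodes with at least 3 markers. Microglial barcodes were chosen by microglial genes and had at most 1 of the 8 endothelial genes. Among them, 0 had 3 of the 5 markers in each of the 7 libraries, though single markers were found, such as Slc7a5 in 1.23% to 13.3%. With 1055 such barcodes in 12-month replicate 1, a count of 0 allows a share of up to 0.284% there, and with 67 in 12-month replicate 2 up to 4.48%. The limit on endothelial genes removed barcodes with more endothelial RNA, so these counts do not bound the background elsewhere.

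The 5 capillary markers are all part of the rule, so markers of the vessel ends outside the rule are given as a description. Members lacked arterial and venous genes by rule and the compared cells carried them by rule. The sums below follow that choice in part and cannot test the label. The 8 arterial markers outside the rule summed to 220 ± 75.8 CPM (UMIs per 1000000 UMIs outside the rule's genes; mean ± SD, n = 7) in members, against 2478 ± 1388 in arterial-marked cells. The 7 venous markers outside the rule summed to 58.5 ± 46.5 CPM in members, against 1375 ± 1176 in venous-marked cells. Arterial-marked cells were endothelial barcodes with at least 2 of Bmx, Gkn3, Vegfc and Sema3g, and venous-marked cells had at least 2 of Slc38a5, Vwf and Nr2f2, in both cases with none of the opposite set and no Plvap. They numbered 1753 and 5777. Sema3c, which kept most barcodes out, was at 467 ± 216 CPM in arterial-marked and 468 ± 126 CPM in venous-marked cells. In all endothelial cells other than members it was at 494 ± 123 CPM. Its exclusion thus does not set members apart from the vessel ends alone, and a missing UMI in a shallow barcode does not show absence. In members, pericyte markers summed to 13.9 to 202 CPM, smooth muscle markers to 0 to 66.3 CPM and astrocyte markers to 29.9 to 122 CPM. Of 6 fibroblast markers, 5 were at 0 in every library. Neuron markers summed to 0 to 68.7, oligodendrocyte markers to 13.9 to 98.1 and lymphocyte markers to 0 to 105 CPM. Microglial markers summed to 44.4 to 382 CPM, with a mean of 147 against 102 in arterial-marked and 73.3 in venous-marked cells. The rule limits Vtn, Acta2 and C1qa, so low sums of pericyte, smooth muscle and microglial markers follow it in part. Erythroid and choroid plexus markers were uneven, from 29.9 to 65958 CPM and from 13.9 to 44240 CPM, and in the libraries that held such barcodes the mixed barcodes carried 96.0% to 99.8% of these UMIs.

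Members were a small share of endothelium at both ages, and no difference between the ages passed the test. The share was 0.949%, 2.10% and 2.62% of endothelial barcodes in the 12-month libraries and 2.59%, 1.24%, 0.845% and 0.892% in the 3-month libraries. The ages overlapped, and the means of 1.89% ± 0.857 (SD, n = 3) and 1.39% ± 0.818 (SD, n = 4) differed by 0.499 percentage points (two-sided exact permutation test over 35 assignments, p = 0.457, adjusted over 2 shares 0.457; the smallest p this design allows is 0.0286). Depth differed between the ages, so every barcode was also thinned. After every barcode was thinned to 1500 UMIs and the rule applied again, the shares were 0.185%, 2.58% and 2.12% against 4.196%, 4.76%, 2.25% and 3.03%. The 12-month mean was then 1.93 percentage points lower (1.63% ± 1.27 against 3.56% ± 1.13; exact permutation p = 0.114, adjusted 0.229). The thinned and unthinned differences thus had opposite signs, and neither passed the test. Thinning left out 6771 shallower endothelial barcodes, 2622 of them in 12-month replicate 1, where 2 members remained. Of the 732 barcodes that met the rule after thinning, 212 also met it at full depth. Most barcodes that met the rule at the lower depth thus did not meet it at full depth. Where Sema3c, Lrrn3 and Ndnf were allowed, the shares were 7.71% at 12 and 16.0% at 3 months, and the difference of -8.26 percentage points again had the opposite sign (exact permutation p = 0.0571).

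**Figure D1:**
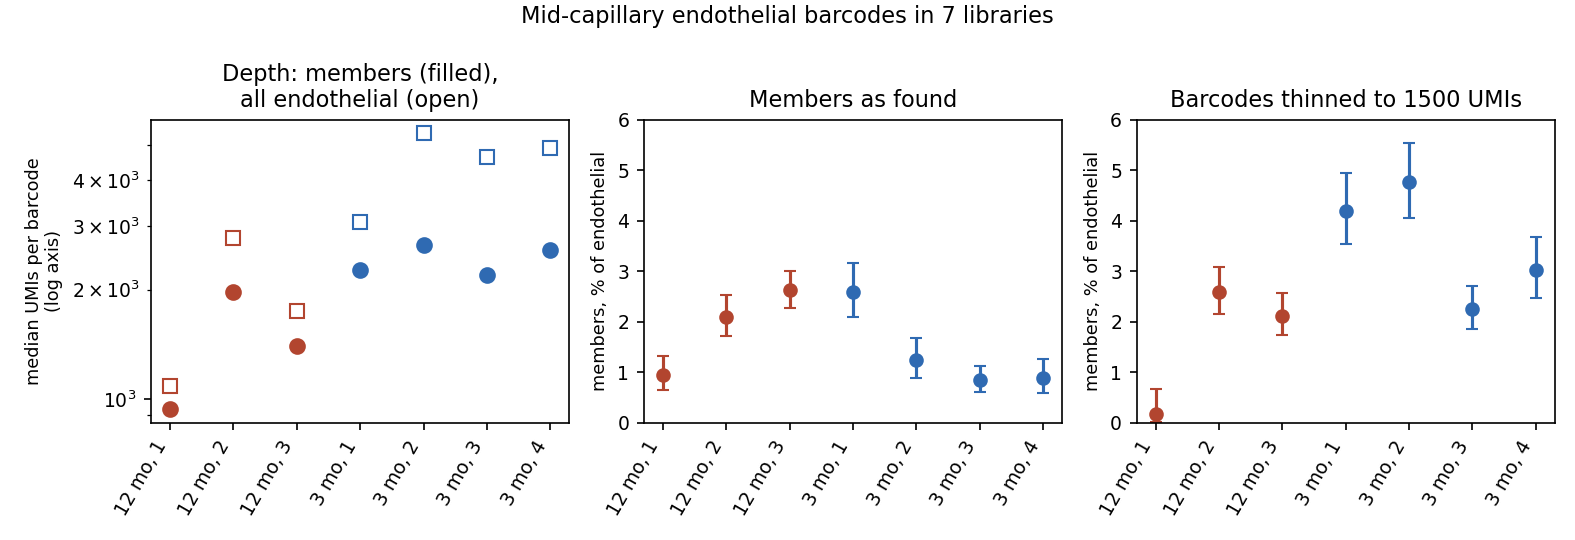
Median UMIs per barcode (left, log axis), members as a percentage of endothelial barcodes as found (middle) and after thinning to 1500 UMIs (right) in each library, 12-month libraries in red and 3-month libraries in blue; bars are 95% exact binomial (Clopper-Pearson) intervals for the counting error. The highest share as found is 2.62% in 12-month replicate 3, and the highest after thinning is 4.76% in 3-month replicate 2.

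Known transport genes of barrier endothelium were measured in members. Of 28 solute carriers 17 and of 10 ABC efflux transporters 3 passed the filter on low counts in the members' age comparison; the genes given here were picked after their levels were seen. Levels below are CPM over the summed UMIs of a library's members, as mean ± SD over 7 libraries, and they cannot be ranked between genes because counts per gene also depend on the capture of each transcript. In summed counts, fewer cells with a transcript and less of it per cell cannot be told apart. Slc2a1, the glucose transporter of the barrier, was at 1500 ± 437 CPM, Slco1a4 and Slco1c1, carriers of organic anions and thyroid hormone, were at 2124 ± 692 and 1440 ± 330 CPM, and Slc6a6, the taurine transporter, was at 1763 ± 562 CPM. The efflux pumps Abcb1a and Abcg2 were at 1286 ± 301 and 950 ± 338 CPM. Pltp, a phospholipid transfer protein, was at 3646 ± 578 CPM, and Spock2, a secreted proteoglycan, at 3029 ± 510 CPM. These transcripts were seen in most single members: thinned to 1000 UMIs, 95.9% of 491 members had a UMI of Pltp, 92.5% of Spock2, 80.2% of Slco1a4, 70.5% of Slc2a1 and 68.6% of Abcb1a. In 1988 microglial barcodes, chosen for few endothelial genes as above, the shares at the same depth were 4.02%, 2.41%, 1.26%, 4.23% and 0.855%.

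The next comparisons ask which genes outside the rule set members apart from cells at the arterial and the venous end. UMIs were summed per library and population and tested with edgeR's quasi-likelihood test with library as a block and Benjamini-Hochberg adjustment over all genes tested; a gene was called at an adjusted p under 0.05. All adjusted p-values below come from this test unless another is named. Because the populations were cut by zonation genes, other genes of the same zones follow that choice in part, and their direction is a description.

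Against arterial-marked cells, most capillary transport genes and the metallothioneins Mt1 and Mt2 were higher in members, and most arterial zonation and Notch genes and the endothelin genes Edn1 and Edn3 were lower. Of 4687 genes tested, 658 (14%) were called, 311 higher (6.64%) and 347 lower (7.4%) in members. Of 15 capillary transport and zonation genes, 11 were higher and 0 lower, with a median log2 fold change of 0.79 against 0.020 over all genes tested. Of 19 tested solute carriers of the barrier, 10 were higher and 1 lower (median 0.66).

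The clearest was Car4 (ENSMUSG00000000805, GRCm38 chromosome 11, 84957786 to 84966044), a membrane-bound carbonic anhydrase. It ranged from 437 to 885 CPM with a median of 708 in members and from 12.7 to 99.0 CPM in arterial-marked cells. The ranges were far apart, and the log2 fold change was 3.59 (SE 0.138, adjusted p = 4.3e-19). Tfrc, the transferrin receptor that takes up iron, ranged from 209 to 726 CPM in members and from 25.4 to 183 CPM in arterial-marked cells, without overlap (log2 1.79, SE 0.140, higher in 7 of 7 libraries). Slc38a3, a glutamine transporter, ranged from 120 to 275 CPM in members and from 50.8 to 107 CPM in arterial-marked cells, again without overlap (log2 1.51, SE 0.138). Slc22a8, an organic anion transporter, was higher by 1.43, Slco2b1, another, by 1.41, Slc3a2, the heavy chain that partners amino acid transporters, by 1.02 and Slc7a1, a cationic amino acid transporter named after its value was seen, by 1.01 on the log2 scale. The VEGF receptor Kdr and its co-receptor Nrp1 were both higher by 0.98, and these were the 2 called of 7 tested VEGF, angiopoietin and apelin genes, with 0 lower and a median of -0.046. Of 22 Wnt pathway and barrier regulators 6 were higher and 2 lower, among them Apcdd1 (log2 1.33) and Nkd1 (1.02), feedback inhibitors of Wnt signalling that were higher, and Sox17 (-0.70), an endothelial transcription factor that was lower.

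Of 9 tested metal handling genes 5 were higher and 2 lower. Higher were Tfrc, given above, the metallothionein genes Mt1 and Mt2, whose small proteins bind zinc and copper, the zinc and manganese importer gene Slc39a8 and the iron exporter gene Slc40a1. Lower were Cp, ceruloplasmin, and Fth1. Mt2 ranged from 140 to 478 CPM in members and from 22.2 to 137 CPM in arterial-marked cells, with no overlap (log2 1.62, SE 0.184). Mt1 was higher by 1.51 with overlapping ranges, from 542 to 1821 CPM against 146 to 855 CPM. Among genes outside the lists, Ctla2a, a cysteine protease inhibitor, ranged from 1303 to 2032 CPM in members and from 159 to 523 CPM in arterial-marked cells (log2 2.26), and Fmo2, a monooxygenase, was higher by 3.15. Tmsb10, an actin-binding peptide of the venous zonation list, was higher by 2.80. All 13 tested mitochondrially encoded genes were above 0 on the log2 scale and 10 were called (median 0.37), but 3 were without 12-month replicate 2 and 5 without any 1 of the 3-month libraries. Of 82 nuclear oxidative phosphorylation genes 18 were called higher (median 0.21), but 3 were without the erythroid and choroid plexus barcodes, 6 with DESeq2, 5 without 12-month replicate 2 or without 3-month replicate 1, and 11 without 12-month replicate 3.

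Of 13 arterial zonation genes, 0 were higher and 11 lower, with a median of -1.67. Mgp (ENSMUSG00000030218, chromosome 6, 136872435 to 136875823), an inhibitor of calcification, ranged from 0 to 42.9 CPM in members and from 201 to 3354 CPM in arterial-marked cells (log2 -5.41, SE 0.241; 2 of 7 member libraries at 0). Alpl, tissue-nonspecific alkaline phosphatase, ranged from 29.9 to 177 CPM in members and from 362 to 617 CPM in arterial-marked cells (log2 -2.18, SE 0.138). Both pairs of ranges were apart. Of 11 Notch genes, 6 were lower and 1 higher: the log2 fold change was -1.31 for the ligand Jag2, -2.03 for the target Hey1, -0.49 for the receptor Notch1 and -1.67 for Efnb2, an arterial ephrin counted with this list. The vasoconstrictor gene Edn1 ranged from 59.8 to 257 CPM in members and from 354 to 702 CPM in arterial-marked cells (log2 -1.25, SE 0.147). Edn3, another endothelin gene, was at -1.67 and S1pr1, a sphingosine phosphate receptor, at -0.79. The growth factor gene Tgfb2 was at -1.32 and Ltbp4, which stores latent TGF-beta, at -0.72, within a TGF-beta and BMP list of which 5 of 14 were lower and 1 higher. Of 25 interferon genes 5 were lower and 0 higher, led by Ifitm3 (-0.83), with 3 lower under DESeq2 and 2 with at least 1000 genes per barcode.

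Against venous-marked cells, most genes of venous zonation and of leukocyte adhesion and NF-kB signalling were lower in members, as were most immediate early and ribosomal protein genes, and some arterial-side genes were higher. Of 7303 genes tested, 535 (7.33%) were called, 211 higher (2.89%) and 324 lower (4.44%). The split moved to 217 higher and 243 lower without the barcodes above the 95th percentile of UMIs. Of 12 venous zonation genes 10 were lower and 0 higher (median -3.18 against -0.00017 over all genes), and of 14 leukocyte adhesion and NF-kB genes 10 were lower and 0 higher (median -1.82).

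Vcam1 (ENSMUSG00000027962, chromosome 3, 116109949 to 116129688), an adhesion molecule for leukocytes, ranged from 0 to 42.9 CPM with a median of 12.1 in members and from 227 to 955 CPM with a median of 349 in venous-marked cells. No library overlapped, and the log2 fold change was -4.64 (SE 0.218, adjusted p = 5.6e-30). Icam1, another adhesion molecule, ranged from 0 to 59.8 CPM in members and from 76.8 to 1000 CPM in venous-marked cells (log2 -3.54, SE 0.209), and Il1r1, the interleukin-1 receptor, from 0 to 29.9 and from 102 to 523 CPM (log2 -3.91, SE 0.270). Both were apart in all libraries. Also lower were Ch25h, which makes 25-hydroxycholesterol (log2 -4.31), Nrp2, a semaphorin and VEGF-C co-receptor (-2.52), and the Wnt ligand gene Wnt5a (-3.68). Fth1, the ferritin heavy chain that stores iron, fell by 1.14 and was lower in 7 of 7 libraries, though the ranges of 1242 to 2628 CPM in members and 1590 to 7710 CPM in venous-marked cells overlapped.

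On the other side stood Cxcl12 (ENSMUSG00000061353, chromosome 6, 117168535 to 117181367), a chemokine. It ranged from 2712 to 6516 CPM with a median of 5229 in members and from 583 to 1456 CPM with a median of 1105 in venous-marked cells, without overlap (log2 2.28, SE 0.126, adjusted p = 9.1e-26). It was also higher than in arterial-marked cells, by 0.79 (SE 0.133, 6 of 7 libraries), a value named after it was seen. Of 10 arterial zonation genes 5 were higher and 2 lower than in venous-marked cells: the guidance receptor Unc5b was higher by 3.12, Alpl by 2.31 and the Notch ligand Dll4 by 1.91 on the log2 scale. Unc5b ranged from 26.2 to 153 CPM in members and from 2.77 to 14.1 CPM in venous-marked cells. Rgcc, a cell cycle regulator of capillaries, was higher by 1.56, and Stra6, the receptor for retinol-binding protein, by 1.93. Clu, another called arterial gene, was higher in 2 of 7 libraries despite a fitted log2 of 2.30, and the value was -0.0032 where Sema3c, Lrrn3 and Ndnf were allowed.

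Transport genes were also compared with venous-marked cells; whether the differences from the venous and the arterial end are unlike was not tested. Of 22 solute carriers tested 2 were higher and 0 lower, with a median of 0.0021: Slco1c1 by 0.59 and Slc39a10, a zinc importer, by 0.46. Car4 was at a log2 of -0.26 (SE 0.116, adjusted p = 0.205), Tfrc at 0.13 (SE 0.116, adjusted p = 0.675) and Slc38a3 at 0.14 (SE 0.124, adjusted p = 0.655). Such values do not show that the cells are alike, and these 3 genes were chosen because they were called against arterial-marked cells. Of 15 capillary genes, 6 were higher and 1 lower than in venous-marked cells, and 2 were higher with at least 1000 genes per barcode.

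**Figure D2:**
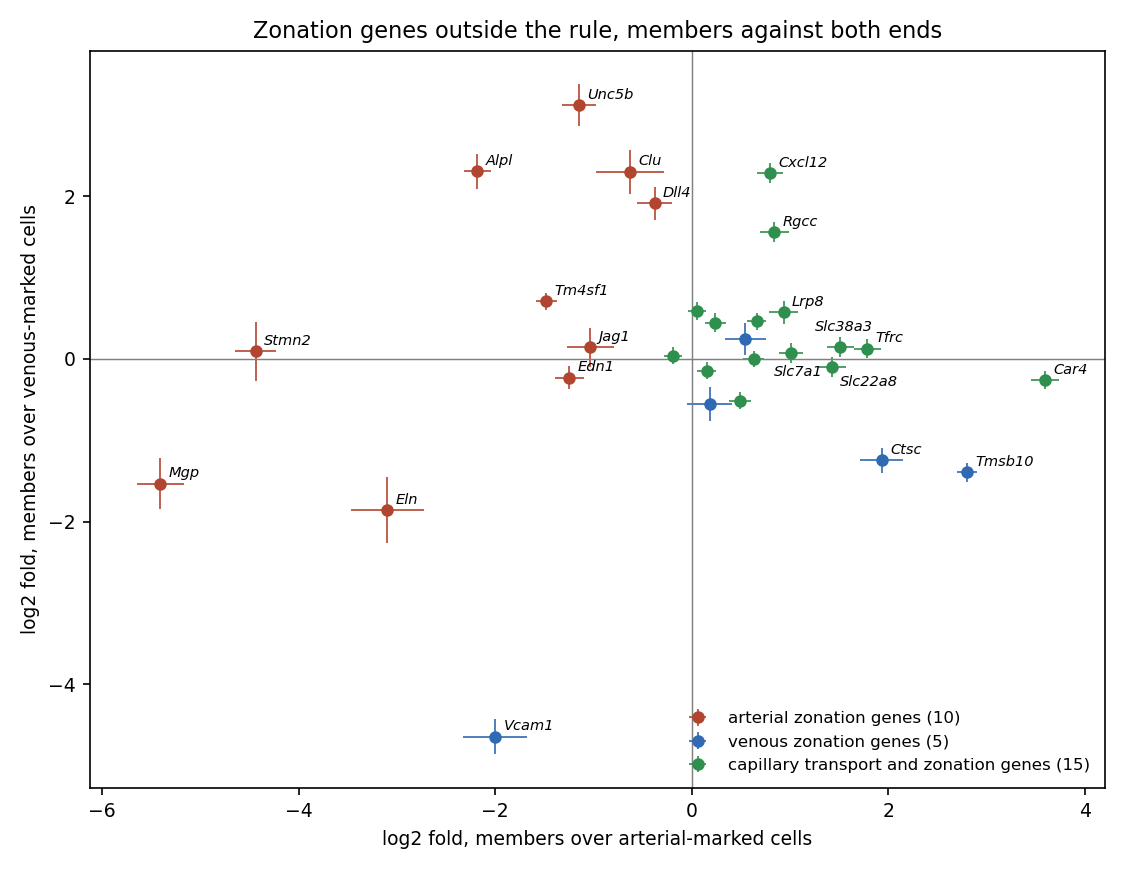
Log2 fold change (± SE) of members over arterial-marked cells (x axis) and over venous-marked cells (y axis) for 10 arterial (red), 5 venous (blue) and 15 capillary (green) genes tested in both comparisons; genes beyond 0.8 on either axis are named. Arterial genes lie to the left, with Unc5b, Alpl, Clu and Dll4 high on the y axis, Vcam1 is low on both axes, and Cxcl12 and Rgcc lie above 0 on both.

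A further comparison used unmarked cells, endothelial barcodes that also lacked the 10 excluded genes but had fewer than 3 of the 5 markers. Members and unmarked cells were thus told apart by capillary markers alone. Other capillary genes follow that choice in part, and their direction is a description. Members were matched within their library, each to 1 unmarked barcode of nearly the same UMI total outside the rules' genes (within 10%). Members without such a partner were left out. This kept 35 of 35, 105 of 108 and 196 of 198 members in the 12-month libraries. In 3-month replicates 1 to 3 it kept 74 of 92, 27 of 42 and 36 of 43. Values of members in this comparison are those of the matched members. In 3-month replicate 4, 18 pairs were found, fewer than the 20 required, so 6 libraries entered. Of 2005 genes tested, 59 (2.94%) were called, 24 higher (1.2%) and 35 lower (1.75%) in members. The count was 13 without 3-month replicate 3, 21 without 12-month replicate 2, 35 without 12-month replicate 3 and 36 without 3-month replicate 1. It was 6 with all unmarked cells, unmatched, and 0 among members with at least 4 markers (edgeR, 115 at an unadjusted p under 0.05).

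All 15 capillary transport and zonation genes were above 0, 7 of them called and 0 lower (median 0.45 against -0.01 over all genes; 2 called without 3-month replicate 3). Slco1a4 ranged from 1225 to 3334 CPM with a median of 2137 in members and from 895 to 1516 CPM with a median of 1169 in unmarked cells. It was higher in 6 of 6 libraries although the ranges overlapped (log2 0.77, SE 0.136, adjusted p = 0.0057). Spock2 was higher by 0.59 (3260 ± 566 against 2175 ± 748 CPM, n = 6), Slc7a1 by 0.66 and, named after their values were seen, Car4 by 0.61 and Cxcl12 by 0.43, each in 6 of 6 libraries. Receptors that carry ligands or signals into the endothelium were among the higher genes. Of 17 tested receptor and vesicle transport genes 5 were higher and 1 lower. Lrp8, an apolipoprotein E receptor, was higher by 0.89 and Igf1r, the IGF-1 receptor, by 0.62, both in 6 of 6 libraries, and Tfrc by 0.81 and Insr, the insulin receptor, by 0.91, both in 5 of 6. Nrp1 was higher by 0.66 and Ptprb, the phosphatase that restrains Tie2, by 0.48. Without 3-month replicate 3 the calls for Spock2 (adjusted p = 0.0511), Insr (0.0511), Tfrc (0.0727), Nrp1 (0.0739) and Ptprb (0.125) were lost. Without 12-month replicate 2 those for Tfrc (0.066), Insr (0.0603), Nrp1 (0.0588) and Ptprb (0.0563) were lost.

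Among the genes lower in members were Crip1, S100a10, S100a11, Vim and Cdkn1c, which the naming rule picked and which belong to none of the lists. Crip1 (ENSMUSG00000006360, chromosome 12, 113146316 to 113153879), a LIM-domain protein, ranged from 114 to 487 CPM in members and from 592 to 837 CPM in unmarked cells, with no overlap (log2 -1.05, SE 0.157, adjusted p = 0.00072). S100a10, an annexin-binding S100 protein, ranged from 24.9 to 86.5 CPM in members and from 103 to 359 CPM in unmarked cells, also without overlap (log2 -1.30, SE 0.243). Vim, vimentin, was at a log2 of -0.65, S100a11 was at -0.69, the cell cycle inhibitor Cdkn1c at -0.86 and Fth1 at -0.54, all lower in 6 of 6 libraries. All 80 tested cytosolic ribosomal protein genes were below 0, with 16 called and a median of -0.40, such as Rpsa at -0.78 and Rpl34 at -0.53. Ribosomal genes have many processed pseudogenes, so their counts are uncertain. The ribosomal calls were 0 without 12-month replicate 2 and 0 without 3-month replicate 3, and 4 to 14 without each of the others (edgeR; 18 with DESeq2 and all 6 libraries). The calls for Vim, S100a11 and Fth1 were lost without 3-month replicate 3 (adjusted p = 0.0537, 0.0511 and 0.0511), and that for Cdkn1c without 12-month replicate 3 (0.0648).

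Markers of other cells and of the arterial end were not alike in the matched pairs. The 8 arterial markers summed to 130 to 1077 CPM in unmarked cells and to 89.7 to 310 CPM in members, and were higher in unmarked cells in 5 of 6 libraries. Lymphocyte markers summed to 0 to 751 CPM against 0 to 171 CPM, and oligodendrocyte markers to 0 to 1108 CPM against 17.8 to 121 CPM, with Mog and Mag at 0 in members. Fibroblast markers summed to 0 to 114 CPM in unmarked cells and were all 6 at 0 in members. Choroid plexus markers were at 53.3 to 2295 CPM against 57.0 to 2223 CPM and erythroid markers at 150 to 72769 CPM against 29.9 to 76974 CPM. Among all unmarked cells, unmatched, choroid plexus markers reached 134940 CPM. Without the erythroid and choroid plexus barcodes 57 genes were called, and the part of the other cells' RNA in the lower genes was not tested. Each endothelial gene of the rule also had a lower mean in all unmarked cells, unmatched, than in all members. Flt1 was at 3264 ± 1113 against 4606 ± 1037 CPM and Pecam1 at 558 ± 206 against 681 ± 175 CPM (mean ± SD over libraries). The libraries were not alike. Pecam1 was higher in unmarked cells in 12-month replicates 1 and 2 and 3-month replicate 1, at 929, 603 and 592 against 747, 495 and 541 CPM. Flt1 was lower in unmarked cells in every library. These levels of the rule's genes are a description. Whether unmarked barcodes held less endothelial RNA, and its part in the higher genes, was not tested.

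**Figure D3:**
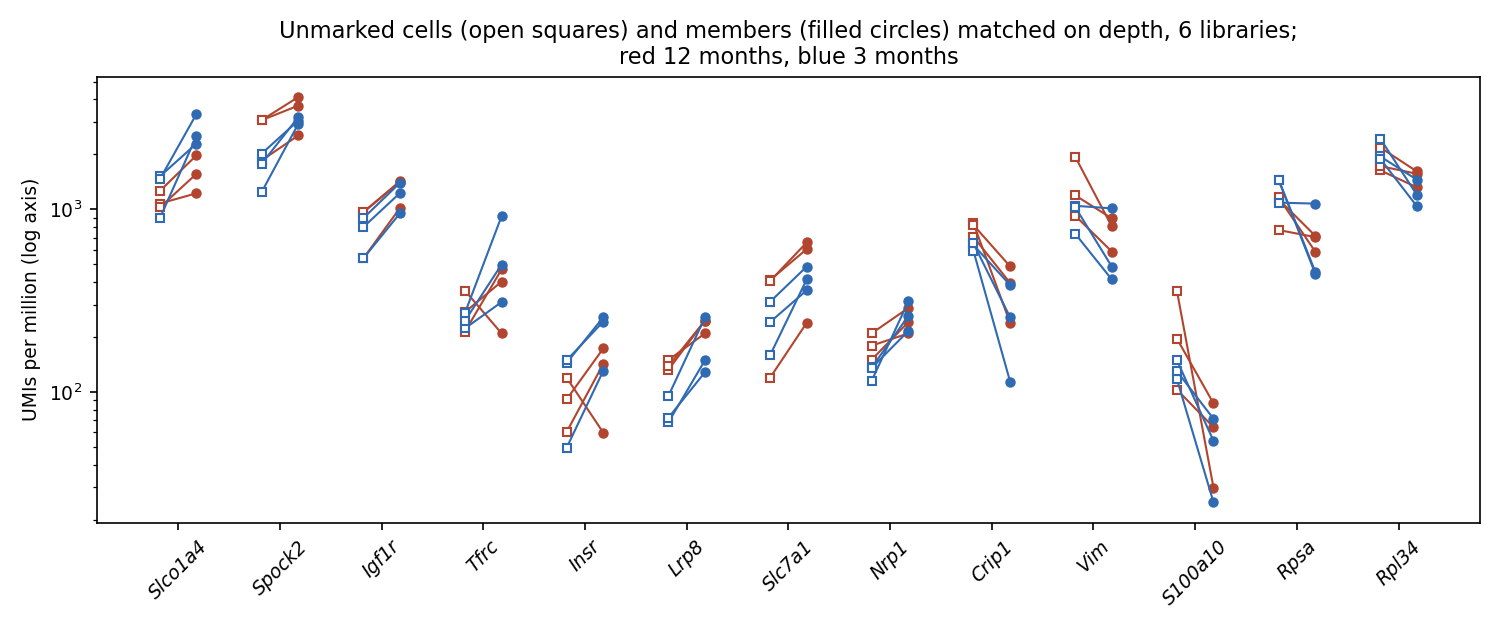
CPM (log axis) of 13 genes in depth-matched unmarked cells (open squares) and the members matched to them (filled circles) in the same library, joined by a line. The 12-month libraries are in red and the 3-month libraries in blue. Crip1 and S100a10 fall in all 6 libraries without overlap, and Slco1a4 and Spock2 rise in all 6.

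Immediate early and MHC class I genes were lower in members than in both vessel ends. The immediate early list holds fast-induced genes, among them the Fos, Jun and Egr families and also Klf4, Atf3, Socs3 and Ier3. Of these immediate early genes, 13 of 23 were lower and 0 higher than in arterial-marked cells (median -0.46). Against venous-marked cells, 18 of 25 were lower and 0 higher (median -0.53). With barcodes thinned to 1500 UMIs the first count became 5 lower and 4 higher of 20 tested, and the second 12 lower and 1 higher of 22. The first was 7 lower with at least 4 markers and 8 lower with at least 1000 genes, and the second was 10 lower without the barcodes above the 95th percentile of UMIs. MHC class I presentation genes were lower in 6 of 12 tests against arterial-marked cells and in 7 of 15 against venous-marked cells, with 0 higher in both. H2-K1 was at -0.38 and -0.73 and B2m at -0.41 against arterial-marked cells; reads of H2 genes are shared between near-identical copies and are uncertain. Cytosolic ribosomal protein genes were lower than in venous-marked cells in 52 of 82 cases with 0 higher (median -0.37), and 2 were higher and 1 lower than in arterial-marked cells (median 0.02). With at least 1000 genes per barcode, 11 ribosomal genes were lower than in venous-marked cells, and without 12-month replicate 3, 32 were. Members were shallower than both vessel ends in every library. Their median UMIs were 936 to 2656, against 1214.5 to 5331 in arterial-marked and 1826 to 7930 in venous-marked cells. The part of depth in these lists was tested only by the thinning, and thinned counts are given here for the immediate early list alone.

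**Figure D4:**
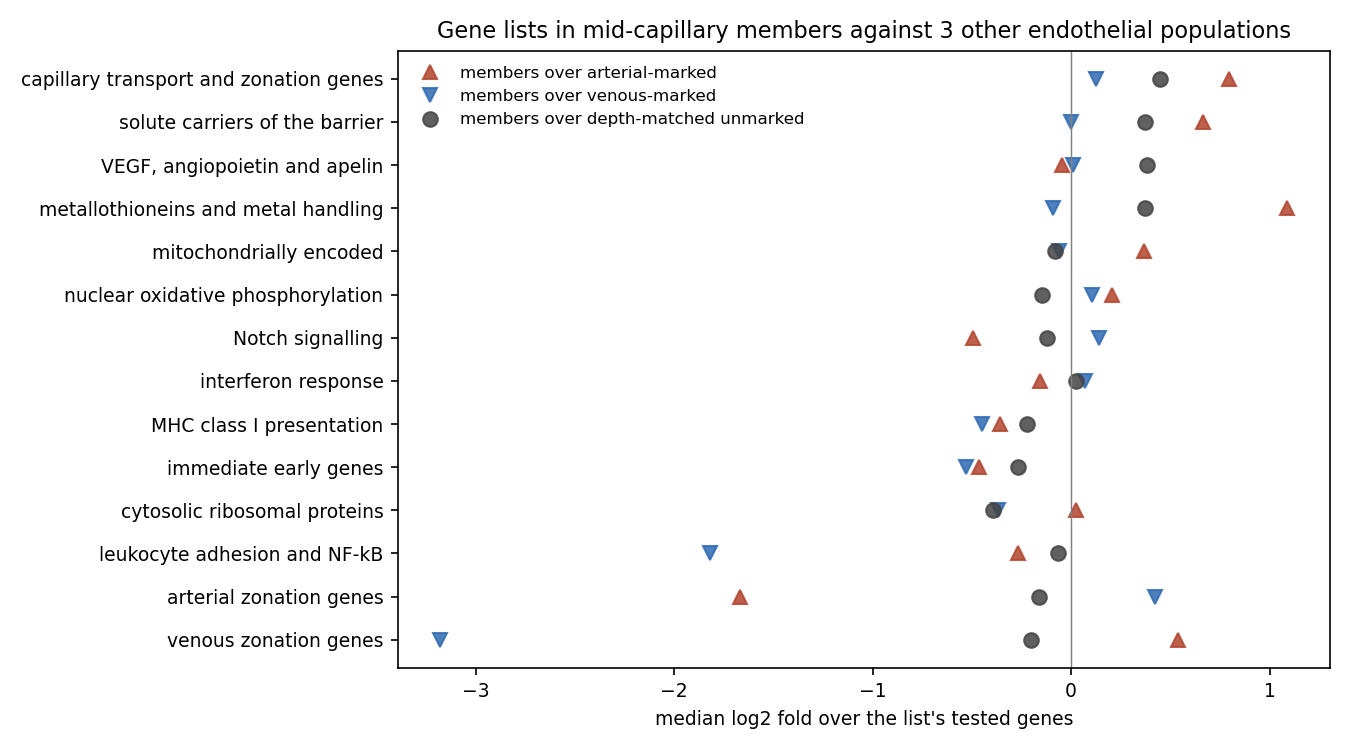
Median log2 fold change over the tested genes of 14 lists for members against arterial-marked cells (red), venous-marked cells (blue) and depth-matched unmarked cells (dark grey). Capillary genes lie above 0 in all 3 comparisons (0.79, 0.13 and 0.45), and immediate early and MHC class I genes lie below 0 in all 3.

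Between the ages, members differed mainly in immediate early genes, which were higher in the 12-month libraries. Of 2224 genes tested with the same test, without a block, 16 (0.719%) were called, 15 higher (0.674%) and 1 lower (0.045%) at 12 months. Of 20 immediate early genes tested, 10 were higher and 0 lower, all 20 were above 0, and their median log2 fold change was 1.17 against -0.028 over all genes. The list count was 6 without 12-month replicate 3, 9 with DESeq2 and 1 with replicate number as a block. Over all genes 7 were called without 12-month replicate 2 and 7 without 12-month replicate 3, 28 without 3-month replicate 1 and 9 without 3-month replicate 3. The ages did not overlap for 143 of the 2224 genes (6.43%).

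Fos (ENSMUSG00000021250, chromosome 12, 85473890 to 85477273), the founding AP-1 subunit, was at 3826, 2231 and 2204 CPM in the 12-month and at 602, 394, 422 and 347 CPM in the 3-month libraries. Every 12-month library was above every 3-month one (log2 2.53, SE 0.285, adjusted p = 9.2e-05). Klf4 (ENSMUSG00000003032, chromosome 4, 55527143 to 55532466), a shear- and stress-responsive factor, was at 1943, 1412 and 1482 against 262, 516, 491 and 597 CPM, again without overlap (log2 1.76, SE 0.265, adjusted p = 0.0023). Atf3, a stress-induced factor, was at 1763, 363 and 299 against 32.3, 105, 49.1 and 55.5 CPM. The ages did not overlap, but 12-month replicate 1 was far above the other 12-month libraries (log2 3.44, SE 0.547, adjusted p = 0.0034). Junb was at 2182, 1845 and 1954 against 735, 691, 402 and 444 CPM (log2 1.72, SE 0.281), and Egr1 at 1315, 897 and 774 against 60.6, 254, 236 and 361 CPM (log2 2.16, SE 0.374). Both were apart between the ages. Fosb was higher by 2.47 and Jun by 1.81 on the log2 scale, but the call for Fosb was lost without 12-month replicate 3 (adjusted p = 0.121) and that for Jun without 3-month replicate 3 (0.057). Jund (1.31) and Ier3 (1.33) were also called; these last 2 lie outside the naming rule.

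Socs3, a feedback inhibitor of cytokine signalling that is also counted in the immediate early list, was at 120, 105 and 101 against 16.2, 26.2, 9.81 and 0 CPM (log2 2.74, SE 0.509). Ankrd37, a hypoxia-linked gene, was at 209, 238 and 267 against 80.8, 52.5, 98.1 and 27.8 CPM (log2 1.80, SE 0.332). Smad7 and Id1, targets of TGF-beta and BMP signalling, were higher by 1.62 (SE 0.331) and 1.25 (SE 0.282), and 2 of 10 genes of that list were called. All 4 were apart between the ages. Calls for Socs3, Ankrd37, Smad7 and Id1 were lost without 12-month replicate 2 and without 12-month replicate 3, and that for Id1 also without 3-month replicate 2, 3 or 4. The only called gene that was lower at 12 months was Gm26917, a predicted gene named here after its value was seen (log2 -1.77).

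None of the 15 capillary genes was called between the ages (edgeR 0, DESeq2 0, and 1 at an unadjusted p under 0.05), and neither was any of 17 solute carriers (0, 0 and 3). Slco1a4 was at 1225, 1392 and 1968 CPM at 12 months and at 1882, 2633, 2738 and 3025 CPM at 3 months, with overlapping ages (log2 -0.76, SE 0.288, adjusted p = 0.545). Slc2a1 was at 2421, 1303 and 1552 against 1126, 1225, 1305 and 1568 CPM (log2 0.35, SE 0.252, adjusted p = 0.896).

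Microglial markers summed to 125 to 382 CPM in the 12-month members and to 44.4 to 96.2 CPM in the 3-month members, and all 8 markers were above 0 in at least 1 library. Microglial barcodes more often held Jun than members did at 1000 UMIs (96.3% against 66.0%). The part of microglial RNA in the age difference was not tested. Members with at least 1000 genes gave 2 calls over 5 libraries, of which Fos was 1, and members with at least 4 markers gave 1 call over 4 libraries, a gene lower at 12 months; 0 of the 16 genes above, and so no immediate early gene, were called there. Thinned to 1500 UMIs, where 12-month replicate 1 dropped out, 11 of 21 immediate early genes were higher and 0 lower. Without the erythroid and choroid plexus barcodes 11 of 20 were higher.

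**Figure D5:**
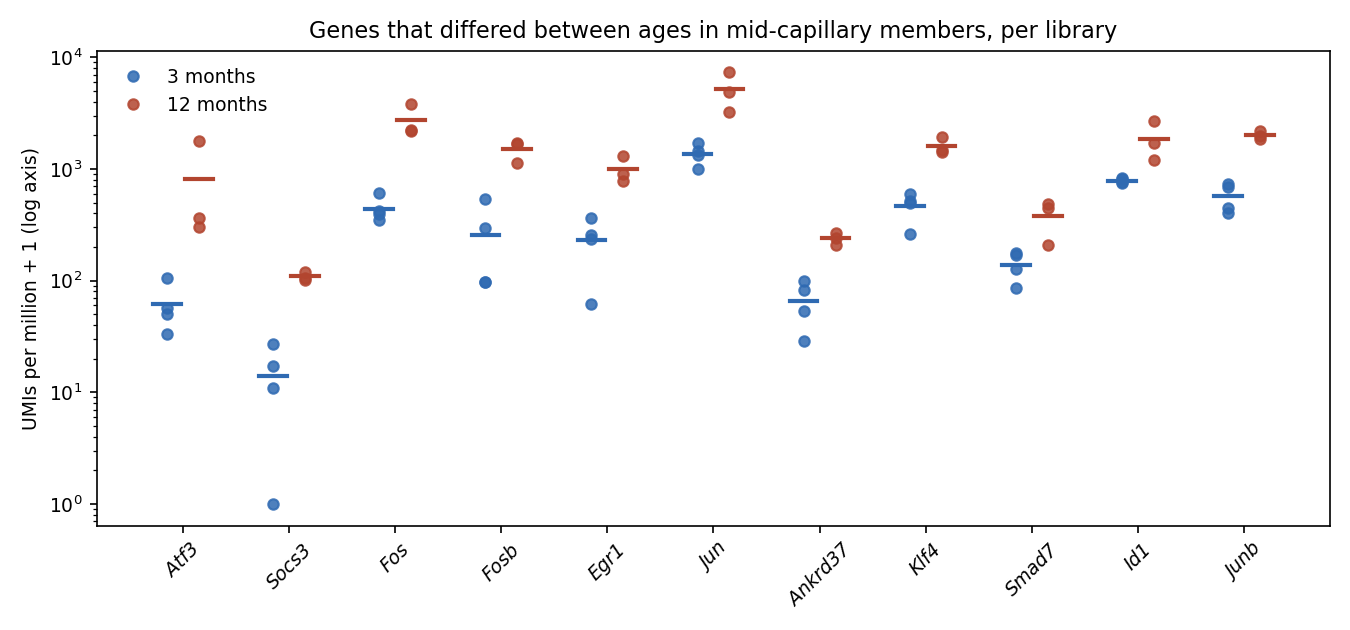
CPM plus 1 (log axis) of 11 genes called between the ages in the members of each library; bars are group means, 12 months in red (n = 3), 3 months in blue (n = 4). In all 11 genes each 12-month library lies above each 3-month library, and Atf3 in 12-month replicate 1 lies apart from the other two.

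The promoters of 3 of the immediate early genes that moved together are shown because Fos, Atf3 and Junb share a short element. The 250 bases before the RefSeq start (GRCm38.p6), on the strand of the gene, are printed 5′ to 3′, and capitals mark TGACG, the half-site of the cAMP response element, on either strand.
Fos, chr12:85473640-85473889, plus strand: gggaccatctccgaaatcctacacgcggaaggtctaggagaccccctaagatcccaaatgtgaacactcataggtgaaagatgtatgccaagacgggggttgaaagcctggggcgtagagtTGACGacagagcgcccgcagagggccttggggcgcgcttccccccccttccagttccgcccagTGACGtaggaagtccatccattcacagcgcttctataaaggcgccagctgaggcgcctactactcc
Atf3, chr1:191183334-191183583, minus strand: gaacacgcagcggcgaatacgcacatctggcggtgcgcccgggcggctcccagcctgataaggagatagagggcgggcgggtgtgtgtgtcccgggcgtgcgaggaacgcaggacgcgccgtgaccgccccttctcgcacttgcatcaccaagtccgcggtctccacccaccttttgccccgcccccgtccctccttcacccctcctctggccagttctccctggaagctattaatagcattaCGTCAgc
Junb, chr8:84978749-84978998, minus strand: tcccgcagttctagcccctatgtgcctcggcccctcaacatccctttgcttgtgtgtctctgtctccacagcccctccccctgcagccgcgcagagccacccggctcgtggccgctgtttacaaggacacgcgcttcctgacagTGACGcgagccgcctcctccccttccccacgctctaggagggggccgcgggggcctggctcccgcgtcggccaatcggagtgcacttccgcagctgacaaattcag
Fos held the element 129 and 66 bases before the start, Atf3 7 bases and Junb 106 bases before it. The windows of 9 of the 10 called immediate early genes were searched. Of these, 5 (Atf3, Fos, Fosb, Junb and Klf4) held TGACG, against 17.8% of 32851 RefSeq windows of this length. The remaining called gene was left out of the search, so the counts here do not say whether its window holds any element. The full element TGACGTCA, which contains the half-site, was in 0 of the 9 windows and in 1.55% of all, and the AP-1 site TGANTCA in 0 of 9 and in 6.75%. The CArG box, the element of serum response factor, was in 0 of 9 and in 1.47%. These matches describe letters in the windows and not binding. Bases outside the windows were not searched, so a count of 0 does not show that a gene lacks an element.

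The same age contrast was then compared between populations with an interaction of age and population. Against arterial-marked cells 3 of 5790 genes (0.0518%), Mt1, Neat1 and Cd74, had an age difference that was unlike that of members, and against venous-marked cells 7 of 8293 (0.0844%). No immediate early gene was among them. For Fos the age difference was larger by 0.86 in members than in arterial-marked cells (SE 0.205, adjusted p = 0.115) and by 0.30 than in venous-marked cells (SE 0.227, adjusted p = 0.992). For Klf4 the values were 0.76 (SE 0.192, adjusted p = 0.146) and 0.16 (SE 0.225, adjusted p = 0.992). Members and the other populations came from the same libraries and so share their handling, but members were shallower.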

How the data were processed

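The deposited files hold whole UMI counts per gene and barcode, made by the authors with Cell Ranger 4.0.0 (12-month libraries) and 6.1.1 (3-month libraries), and the build is mm10 per the submitters' processing notes. No deposited cell annotation was used, so the rule rebuilt the populations. All 7 libraries shared 32285 genes. Members, lists, rules and tests were chosen with earlier results of these data known.

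UMIs were summed per library and population, with at least 20 cells required, and the 27 genes of the rules were left out of totals and tests. Summed counts were tested with edgeR 4.0.16 (R 4.3.3; TMM scaling, filterByExpr, quasi-likelihood test, Benjamini-Hochberg adjustment, called under 0.05), with library as a block between populations. Shares were compared by exact permutation in Python 3.11.15. The edgeR tests were also run on simulated counts with the same dispersion for every gene and no mixed barcodes. Such counts are simpler than these libraries, so that run does not vouch for the calls here. Intervals and limits from counts cover counting error only.

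Named genes passed the threshold, reached 50 CPM in the higher group and had 1 sign in all libraries, or ages that did not overlap. They were the 8 highest and 8 lowest by fold change, plus up to 4 per list (the sign rule was not required there) with the smallest p, and 5 each way for interactions. Predicted, mitochondrial, ribosomal, sex-linked and rule genes were not eligible for the highest and lowest. Alternatives were DESeq2 1.42.0, other filters and depths, other marker numbers, a replicate block and leaving out each library. Gene positions come from GENCODE M21 (GRCm38), and promoters from RefSeq. One gene of the venous list is counted in its list but not reported by name.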

Additional observations from a re-analysis of the deposited data

Results flagged for a closer look

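The 12-month to 3-month difference of 3 genes was unlike in members and in arterial-marked cells by a test of the difference itself (edgeR's quasi-likelihood test of the interaction, Benjamini-Hochberg adjustment). Values are the log2 difference in members minus that in the other cells. Mt1, a metallothionein, was at 1.31 (adjusted p = 0.0059). It was at 1494, 675 and 1364 CPM in 12-month members and 1821, 542, 1109 and 625 CPM in 3-month members, against 146, 222 and 277 CPM and 855, 420, 439 and 468 CPM in arterial-marked cells. In arterial-marked cells each 12-month library was thus below each 3-month one, whereas the ages of members overlapped. The call was lost without 12-month replicate 3 (adjusted p = 0.0539) and without 3-month replicate 2 (0.0735). Neat1, a nuclear long noncoding RNA, was at -1.21, and DESeq2 did not call it (adjusted p = 0.221). Cd74, the invariant chain of MHC class II, was at -5.11, and 3-month replicate 2 alone held 324 CPM in members. Without that library the value was -1.44 (adjusted p = 0.992).

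Against venous-marked cells 7 genes differed in the same way. Fth1, the ferritin heavy chain, was at -1.20 and at -0.719 without 12-month replicate 1 (adjusted p = 0.118). Sbno2, a transcriptional coregulator, was at -1.95: it was at 29.9, 74.1 and 38.2 CPM in 12-month members and 206, 257 and 184 CPM in 12-month venous-marked cells, without overlap. The remaining values were -1.11 for Neat1, 1.33 for Dusp6, a MAP kinase phosphatase, 1.25 for Ddc, an amine-forming decarboxylase, 2.69 for Hbb-bt, a globin gene, and 2.77 for Ecrg4. Hbb-bt was at -1.82 without the erythroid and choroid plexus barcodes. Ecrg4 was at 1021 CPM in members of 3-month replicate 1 and at 238 CPM in those of 12-month replicate 2, with 0 in 3 of the other member libraries. Fold changes of such genes depend on the fit. DESeq2 called 0 of the 7, and each of the 7 except Hbb-bt lost its call or changed sign when at least 1 library was left out.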

How the results depend on the processing

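The alternatives that allow Sema3c, Lrrn3 and Ndnf or leave out erythroid and choroid plexus barcodes were chosen after seeing the data. The share difference between the ages (0.499 percentage points) was -0.0959 with at least 4 markers, -0.185 with at least 1000 genes and -8.26 with the 3 genes allowed; it ranged from 0.132 to 0.970 with 1 library left out, and the thinned difference from -2.41 to -1.21. Deviations of same-numbered libraries of the ages had correlations of -0.248, -0.11 and 1.51e-05, and those of unlike-numbered ones ran from -0.297 to 0.301. So few values cannot show whether the numbers pair libraries. With replicate number as a block the share difference was 0.332 (exact permutation p = 0.75), the thinned one -2.11 (exact permutation p = 0.25), and the age count 2. Between the ages 16 genes were called, 7 to 28 with 1 library left out, 41 without a filter, 1 with at least 4 markers, 2 with at least 1000 genes, 116 with the 3 genes allowed and 32 thinned. Against arterial-marked cells 658 were called, 471 to 731 with 1 library left out, 1020 without a filter, 316 with at least 4 markers and 1972 with the 3 genes allowed. Against venous-marked cells 535 were called, 374 to 581 with 1 library left out, and 869, 267 and 2260 under the same settings, with 328 at 1000 genes. Against unmarked cells 59 were called, 13 to 47 with 1 library left out, 138 without a filter, 120 with at least 2 markers, 0 with at least 4 (edgeR, 115 at an unadjusted p under 0.05), 22 with at least 1000 genes, 757 with the 3 genes allowed, 6 unmatched and 137 against cells with none of the markers. The interaction with arterial-marked cells gave 3 genes, 0 to 14 with 1 library left out (0 without 3-month replicate 2, with 287 at an unadjusted p under 0.05, and 14 without 12-month replicate 2), 14 without erythroid and choroid plexus barcodes and 7 thinned. That with venous-marked cells gave 7, 2 to 35 with 1 library left out (2 without 3-month replicate 4 and 35 without 12-month replicate 3), 0 with DESeq2 (233 at an unadjusted p under 0.05) and 12 without those barcodes. Signs turned for Ldhb against arterial-marked cells (-0.23 with the 3 genes allowed, -0.42 without those barcodes) and Ndufa1 (-0.00039 with the genes allowed). Against venous-marked cells they turned, with the genes allowed, for Clu (-0.0032), Atp5g1 (-0.043) and Ndufa1 (-0.19; -0.033 thinned). The interaction with venous-marked cells turned for Ecrg4 (-9.50 without 12-month replicate 2 to 5.84 without 12-month replicate 3, -4.11 thinned) and Hbb-bt (-1.82 without those barcodes). The cause was not tested. Of the named genes, 5 of 11 between the ages, 77 of 89 against arterial-marked, 60 of 77 against venous-marked and 7 of 30 against unmarked cells were called whichever library was left out. Few members per library (30 to 198) limit the depth of every sum.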

Other observations

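Xist, the RNA of the inactive X chromosome, was found in members of 3-month replicate 1 (557 CPM) and replicate 2 (1277 CPM) and was at 0 in those of the other 5 libraries, whereas the Y-linked Ddx3y was at 0 in the first pair and at 55.5 to 167 CPM in the others. The 12-month libraries thus hold 0 and the 3-month libraries 2 with Xist. The part of sex in the age differences was not tested.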
